A study of Homo sapiens with 6 samples.

Results

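Epithelial cells are held together by tight junctions, gap junctions and desmosomes, and the genes described here encode the core proteins of all of these contacts. They were chosen by gene symbol alone: the claudins (CLDN and a number), the connexins (GJA, GJB or GJC and a number), the TJP genes (TJP and a number), the desmogleins DSG1 to DSG4, the desmocollins DSC1 to DSC3, the plakophilins PKP1 to PKP4, and OCLN, F11R, CGN, DSP, JUP, MARVELD2 and MARVELD3. The rule found 61 of the 25369 genes in the files, of which 23 are claudins, 8 are other tight junction proteins, 17 are connexins, 7 are desmosomal cadherins and 6 are desmosomal plaque proteins.

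Claudins span the membrane at the tight junction, where their extracellular loops meet those of the neighboring cell and set which ions pass between the cells, and cytoplasmic scaffolds such as ZO-1 tie them to actin. Connexins assemble into channels that join the cytoplasm of neighboring cells, and desmosomal cadherins link cells through a plaque of plakophilins, plakoglobin and desmoplakin to intermediate filaments. In the kidney each nephron segment carries its own set of claudins, so claudin expression differs between the leaky proximal tubule and the tighter distal segments.

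RNA-Seq was carried out on Caki2, a clear cell renal cell carcinoma (ccRCC) line that makes no PBRM1 protein, the bromodomain subunit of the PBAF chromatin remodeling complex. Caki2+Vector carried an empty doxycycline-inducible lentiviral vector, Caki2+PBRM1 carried the same kind of vector with PBRM1, and each group has 3 biological replicates (A, B and C). Both groups were stable lines after antibiotic selection and both were kept in doxycycline at 2 µg/mL. Each line came from its own infection and selection, so differences between the lines and the effect of PBRM1 cannot be told apart. The comparison asks how transcription changed when PBRM1 was put back, in 1 cell line and from a construct rather than from the gene itself.

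Expression is given as normalized counts, in which the reads on a gene were divided by a factor for the depth of its sample, and the samples held from 7312955 to 10835355 reads on genes per sample. PBRM1 stood at 195, 182 and 182 normalized counts in Caki2+Vector A, B and C, and at 2432, 2521 and 2682 in Caki2+PBRM1 (log2 fold change 3.76, SE 0.06, limma adjusted p = 3.33e-29). The study reports that Caki2 has PBRM1 mRNA but lacks the protein. The summed renal epithelial and ccRCC markers ran from 47306 to 48333 in Caki2+Vector and from 48891 to 49641 in Caki2+PBRM1, with 4 of 11 tested markers upregulated, 2 downregulated and CA9 under the filter on low values. Endothelial markers summed to between 58.7 and 63.3 in Caki2+Vector and between 34.4 and 41.8 in Caki2+PBRM1, nearly all of it ESAM, while 6 of the 7 stayed under 10 in every sample and CDH5 and TEK were at 0. Among the immune, fibroblast and melanocytic or neural markers 5 of 6, 3 of 6 and 2 of 4 stayed under 10 in every sample, and none of the others passed the test. Caki2+Vector A stood apart from its group: the counts of a pair of Caki2+Vector replicates differed by a chi-square per degree of freedom of 3.09 and 2.84 where the pair held A, against 1.34 for B and C and 1.19 to 1.22 within Caki2+PBRM1. Genes with fewer than 20 reads in a pair were left out of that chi-square.

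Only 28 of the 61 junction genes reached 10 normalized counts in at least 3 samples and were tested. Another 23 were detected below that filter, 19 of them without a single value of 10, and 10 were at 0 in every sample. Of the 28 tested, 4 were upregulated in Caki2+PBRM1 (CLDN2, CLDN23, GJA1 and DSP), 6 were downregulated (CGN, GJA3, CLDN4, TJP1, CLDN16 and GJC1), and 18 did not pass the threshold of an adjusted p under 0.05. Of the 13303 genes tested in the same fit 29.2% passed, 16.2% rising and 13.0% falling, so a count of 10 of 28 (35.7%) lies near the share of the whole transcriptome. The groups did not overlap for 13 of the 28, against 41.7% of the genes tested. The median log2 fold change of the 28 was -0.02, and that of the genes tested was -0.004. Without Caki2+Vector A the counts were 6 upregulated and 9 downregulated, and the genes added are given with their values further on. Over all genes 2251 rose and 1903 fell without Caki2+Vector A, against 2152 and 1734 with all samples. Whether the junction genes differ from other genes in this was not tested. For every gene given in full the exact permutation test of 3 samples against 3 (2-sided) cannot go below p = 0.1, and the downregulated and upregulated genes named above were at that limit.

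**Figure D1:**
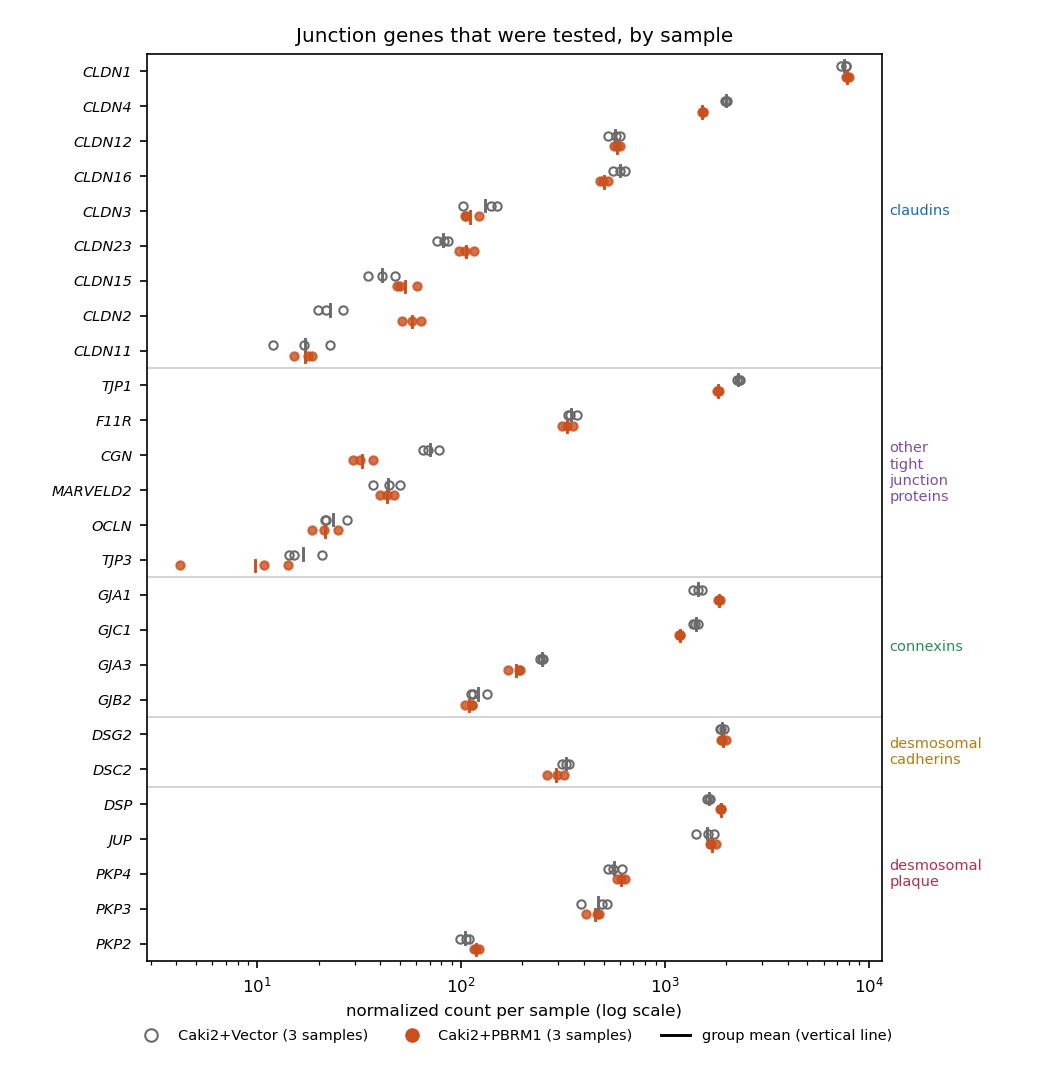
Normalized counts (x axis, log scale) of junction genes that were tested, 1 gene to a row and grouped by role; open circles are the 3 Caki2+Vector samples, filled circles the 3 Caki2+PBRM1 samples, and vertical lines the group means. CLDN1 has the highest levels (7331 to 7961) and TJP3 the lowest value (4.20), and for CLDN2 and CGN the open and filled circles stand well apart.

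**Figure D2:**
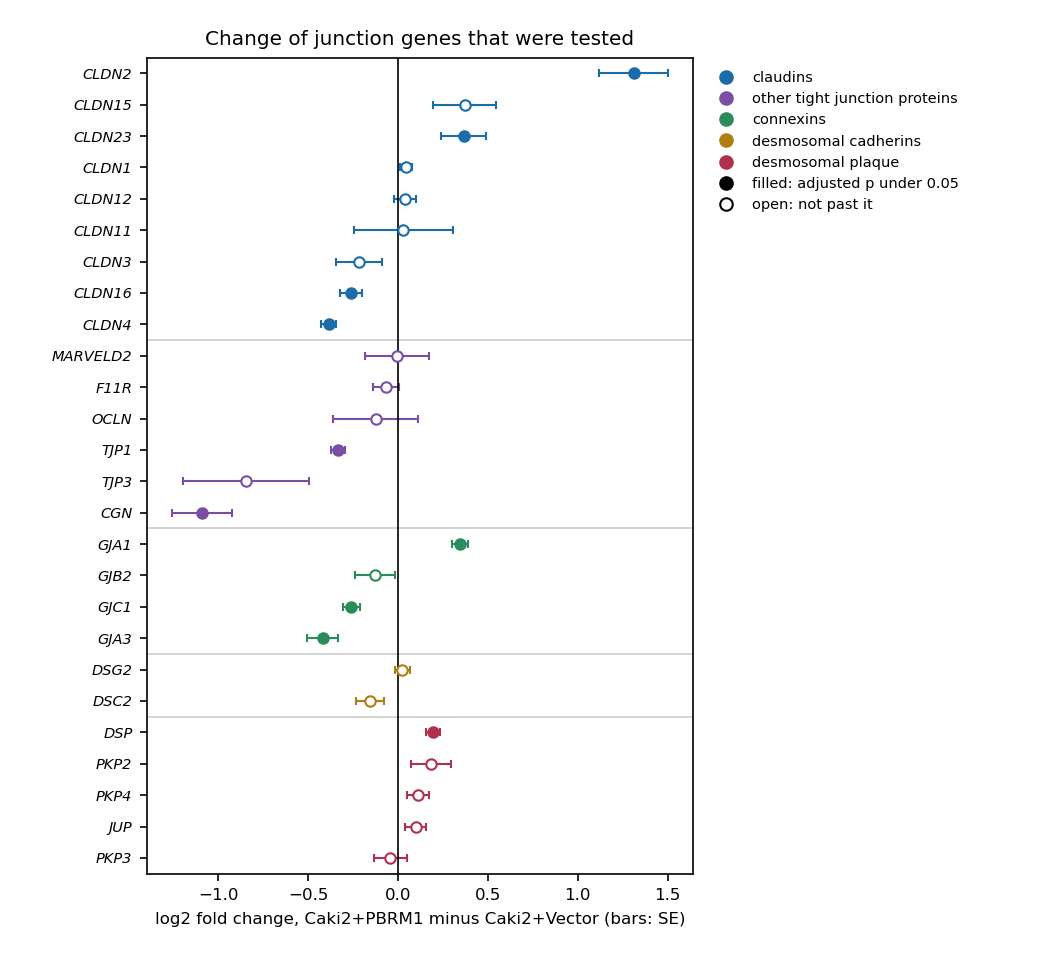
Log2 fold change of the same genes (x axis, Caki2+PBRM1 minus Caki2+Vector, on log2 of the normalized count + 1), with SE as bars; filled circles passed an adjusted p under 0.05. CLDN2 lies farthest to the right at 1.31 and CGN farthest to the left at -1.09, and both directions occur among the claudins and the connexins.

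Among the claudins 9 of 23 were tested, and 2 rose, 2 fell and 5 did not pass the test. CLDN2, which forms a channel for cations and water in the leaky epithelium of the proximal tubule, was at 19.9, 21.7 and 26.4 normalized counts in Caki2+Vector and at 57.4, 51.6 and 63.8 in Caki2+PBRM1. Every Caki2+PBRM1 sample was thus above every Caki2+Vector sample, with means of 22.7 ± 3.34 and 57.6 ± 6.12 (SD, n = 3 each). The log2 fold change was 1.31 (SE 0.19, limma adjusted p = 3.72e-06), a fold of 2.48 and the largest among the 28 genes tested. CLDN2 lies on chromosome X at 106143394 to 106174091 (GRCh37, plus strand), where its span overlaps that of MORC4 on the opposite strand with 0 shared exon bases, and where 341 of its 3412 exon bases lie in exons of RIPPLY1, also on the opposite strand and at 0 in every sample. MORC4 itself rose, with means of 119 and 194 (log2 fold change 0.70, adjusted p = 3.66e-06), and since the strand setting of the count is not given in the sources used here, its part in the CLDN2 count was not tested.

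RefSeq lists a pair of starts for CLDN2 on GRCh38.p14, and the 250 bases upstream of each are shown because this gene had the largest rise. The first window is chrX:106899914-106900163 and the second chrX:106918110-106918359, both on the plus strand. Capitals mark matches, on either strand, to the AP-1 motif TGANTCA, the E-box CACCTG bound by SNAI and ZEB factors, the grainyhead motif AACNGGTT, CCAAT and TATAAA.
CLDN2 window 1: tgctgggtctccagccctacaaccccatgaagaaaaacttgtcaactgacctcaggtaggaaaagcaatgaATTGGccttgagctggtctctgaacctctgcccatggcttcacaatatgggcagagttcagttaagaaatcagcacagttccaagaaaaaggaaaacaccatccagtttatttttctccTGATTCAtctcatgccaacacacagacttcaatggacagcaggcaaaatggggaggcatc
CLDN2 window 2: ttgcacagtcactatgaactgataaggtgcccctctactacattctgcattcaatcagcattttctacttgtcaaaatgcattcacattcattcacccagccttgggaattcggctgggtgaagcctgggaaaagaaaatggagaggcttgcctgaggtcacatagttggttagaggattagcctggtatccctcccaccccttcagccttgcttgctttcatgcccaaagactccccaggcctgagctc
The first window holds an AP-1 match from -60 to -54, counted back from the start, and a CCAAT match on the opposite strand, and the second holds no match to these motifs. Their GC content is 46% and 48.8%, against a median of 58% over the 35116 windows of all genes.

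CLDN4, a sealing claudin of the distal nephron and collecting duct, was downregulated. It was at 1982, 1978 and 2023 normalized counts in Caki2+Vector and at 1519.7, 1529.7 and 1530.0 in Caki2+PBRM1, so the groups stood far apart relative to their spread. The means were 1995 ± 24.8 and 1526 ± 5.87 (SD, n = 3 each), and the log2 fold change was -0.39 (SE 0.04, limma adjusted p = 1.53e-08). Its neighbor CLDN3, 29.3 kb away on chromosome 7, did not pass the test with all samples.

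CLDN16 (paracellin-1), which is needed for magnesium reabsorption in the thick ascending limb, fell as well. Its normalized counts were 556, 604 and 640.0 in Caki2+Vector and 524, 478 and 497 in Caki2+PBRM1. The highest Caki2+PBRM1 sample lay below the lowest Caki2+Vector sample, with means of 599.8 ± 42.3 and 499.8 ± 23.2 (SD, n = 3 each). The log2 fold change was -0.26 (SE 0.06, limma adjusted p = 0.00203).

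CLDN23 rose by a smaller amount, from 86.1, 76.5 and 82.7 normalized counts in Caki2+Vector to 97.5, 104 and 116 in Caki2+PBRM1. The groups did not overlap, and the log2 fold change was 0.36 (SE 0.12, limma adjusted p = 0.0264). This call rests on single libraries: without Caki2+Vector B the log2 fold change was 0.32 (adjusted p = 0.0911), without Caki2+PBRM1 B 0.38 (adjusted p = 0.0643) and without Caki2+PBRM1 C 0.30 (adjusted p = 0.151), and DESeq2 on recovered reads gave 0.37 (adjusted p = 0.124). CLDN23 lies on chromosome 8.

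CLDN1, a sealing claudin and the most abundant junction gene of the set per kb of exon in both groups, did not differ beyond its spread. It was at 7737, 7331 and 7692 normalized counts in Caki2+Vector and at 7779, 7703 and 7961 in Caki2+PBRM1, and the ranges of the groups overlap. The log2 fold change was 0.04 (SE 0.03, limma adjusted p = 0.361). CLDN3, CLDN11, CLDN12 and CLDN15 were the other tested claudins that did not pass, with log2 fold changes from -0.22 to 0.37. In GENCODE CLDN12 shares 201 exon bases with CDK14 and 347 with GTPBP10, so its reads and theirs may be split by the counting.

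CLDN8, a claudin of the distal nephron that partners CLDN4, was under the filter but nearly absent from Caki2+PBRM1. The normalized counts were 12.3, 5.67 and 16.8 in Caki2+Vector against 0, 0 and 0.839 in Caki2+PBRM1, and no Caki2+PBRM1 sample reached the lowest Caki2+Vector sample. In recovered reads that is 13, 6 and 14 against 0, 0 and 1, or 33 against 1. Corrected for depth, this is a 36.3-fold lower level in Caki2+PBRM1, with an exact 95% counting interval from 6.07 to 1475, which covers counting error only. With no filter the limma fit gave a log2 fold change of -3.25 (adjusted p = 8.04e-08), and edgeR on recovered reads, added after seeing the data, gave -4.72 (adjusted p = 6.10e-08). CLDN8 is given because its groups do not overlap, so these p-values come from the values that chose it and are not separate support. The Caki2+PBRM1 reads are also at the floor, which limits the spread that the tests see.

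Among the other claudins below the filter were CLDN5, CLDN6, CLDN7, CLDN9, CLDN10, CLDN14, CLDN18, CLDN19 and CLDN20, with highest values from 1.20 (CLDN7 and CLDN19) to 15.1 (CLDN9). Apart from CLDN8, the groups of CLDN18 did not overlap, at 4.73, 3.78 and 5.99 in Caki2+Vector against 1.08, 3.56 and 2.52 in Caki2+PBRM1, which come from 14 and 8 reads. CLDN17, CLDN22, CLDN24 and CLDN25 were at 0 in every sample. All 2177 exon bases of CLDN22 in GENCODE lie within exons of WWC2 on the opposite strand, so if strand was not used in counting, reads there may have been assigned to neither gene and the 0 would not be informative.

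The 8 other tight junction proteins are the scaffolds and the remaining membrane proteins of the strand. Of these, 7 were tested, 2 fell, and none rose. Each of the 7 had a negative log2 fold change in the main fit, from -1.09 to -0.01. Their median was -0.12, and that of all genes tested was -0.004. Of the 7, 5 did not pass. The value of MARVELD2 (-0.01, SE 0.18) was slightly positive with edgeR and with voom on recovered reads (0.002 and 0.009).

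CGN encodes cingulin, the scaffold that links ZO proteins to actomyosin, and it had the largest fall among the junction genes tested. It was at 69.1, 65.2 and 77.9 normalized counts in Caki2+Vector and at 36.8, 32.0 and 29.4 in Caki2+PBRM1, so its lowest Caki2+Vector sample was far above its highest Caki2+PBRM1 sample. The means were 70.7 ± 6.51 and 32.7 ± 3.78 (SD, n = 3 each). The log2 fold change was -1.09 (SE 0.17, limma adjusted p = 8.14e-06), that is, 0.470 of the Caki2+Vector level.

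For CGN the 250 bases upstream of its RefSeq start are shown, since they differ in composition from those of CLDN2. They span chr1:151511137-151511386 (GRCh38.p14, plus strand), and capitals mark the same motifs as above.
CGN window: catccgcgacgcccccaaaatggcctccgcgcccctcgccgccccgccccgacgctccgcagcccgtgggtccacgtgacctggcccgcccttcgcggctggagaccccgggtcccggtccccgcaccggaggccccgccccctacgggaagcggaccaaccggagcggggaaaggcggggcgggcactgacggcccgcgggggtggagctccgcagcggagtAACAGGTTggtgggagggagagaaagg
The capitals are a grainyhead match from -27 to -20, a motif found in 1.49% of the 35116 windows. The window is 76% GC and also holds 5 matches to the GC box GGGCGG, of which a neighboring pair shares 1 base, and 1 stretch that matches the hypoxia core ACGTG on both strands. These motifs are common: 42.6% of the 35116 windows hold a GC box and 18.5% hold ACGTG.

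TJP1 encodes ZO-1, the central scaffold that gathers claudins and occludin, and it was the most abundant of the 8 per kb in both groups. Its normalized counts were 2296, 2259.9 and 2328 in Caki2+Vector and 1812, 1846 and 1804 in Caki2+PBRM1. The groups lay apart by many times their spread, with means of 2294 ± 33.9 and 1821 ± 22.2 (SD, n = 3 each), and the log2 fold change was -0.33 (SE 0.04, limma adjusted p = 1.35e-07). TJP3 (ZO-3) had a log2 fold change of -0.84 and did not pass (adjusted p = 0.0716).

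TJP3 was low, at 20.8, 15.1 and 14.4 normalized counts in Caki2+Vector and at 10.8, 14.2 and 4.20 in Caki2+PBRM1. Its groups did not overlap, and it passed with voom (-0.94, adjusted p = 0.0427), with quantile normalization (adjusted p = 0.0415) and without Caki2+PBRM1 B (-1.16, adjusted p = 0.0293). The fold rested on Caki2+PBRM1 C, the sample at 4.20: without it the log2 fold change was -0.39 (adjusted p = 0.446), and without Caki2+Vector A it was -0.69 (adjusted p = 0.177). OCLN (occludin), MARVELD2 (tricellulin) and F11R (the adhesion molecule JAM-A) had log2 fold changes of -0.12, -0.01 and -0.07, none past the threshold. MARVELD3 was under the filter, with 2.84 as its highest normalized count.

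Of the 17 connexins 5 were tested, and 1 rose, 2 fell and 2 did not pass. GJA1 encodes connexin 43, the most widely expressed connexin. It was at 1513, 1379 and 1456 normalized counts in Caki2+Vector and at 1814, 1867 and 1848 in Caki2+PBRM1. No Caki2+Vector sample reached the Caki2+PBRM1 range, and the means were 1449 ± 67.0 and 1843 ± 26.9 (SD, n = 3 each). The log2 fold change was 0.35 (SE 0.04, limma adjusted p = 3.92e-07).

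GJC1 (connexin 45) and GJA3 (connexin 46) went the other way. GJC1 was at 1377, 1409 and 1453 normalized counts in Caki2+Vector and at 1179.6, 1171 and 1191 in Caki2+PBRM1, with means of 1413 ± 37.8 and 1181 ± 9.78 (SD, n = 3 each). Its groups were separate, and its log2 fold change was -0.26 (SE 0.04, limma adjusted p = 4.88e-05). GJA3, which in the body is known mainly from the lens, was at 243, 253 and 250.5 in Caki2+Vector and at 193, 171 and 196 in Caki2+PBRM1. Its highest Caki2+PBRM1 sample stayed below its lowest Caki2+Vector sample, and the log2 fold change was -0.42 (SE 0.09, limma adjusted p = 0.000382). GJB2 (connexin 26), 26.4 kb from GJA3 on chromosome 13, had a log2 fold change of -0.13 and did not pass (adjusted p = 0.436).

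The windows upstream of GJA1 and GJA3 are shown because these are the connexins with the largest rise and the largest fall. They span chr6:121435396-121435645 on the plus strand and chr13:20161053-20161302 on the minus strand (RefSeq, GRCh38.p14), and each reads 5′ to 3′ toward its gene.
GJA1 window: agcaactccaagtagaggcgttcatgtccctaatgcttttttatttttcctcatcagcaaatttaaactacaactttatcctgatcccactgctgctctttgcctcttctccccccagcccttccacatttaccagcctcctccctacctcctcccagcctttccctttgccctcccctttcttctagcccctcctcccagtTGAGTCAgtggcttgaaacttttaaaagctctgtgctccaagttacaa
GJA3 window: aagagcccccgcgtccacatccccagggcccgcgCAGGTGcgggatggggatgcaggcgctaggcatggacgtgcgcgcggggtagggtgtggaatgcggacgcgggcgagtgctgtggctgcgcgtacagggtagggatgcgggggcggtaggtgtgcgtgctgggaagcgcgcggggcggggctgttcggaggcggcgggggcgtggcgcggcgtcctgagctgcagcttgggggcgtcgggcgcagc
GJA1 holds an AP-1 match from -48 to -42 and GJA3 an E-box match on the opposite strand from -216 to -211. The GJA3 window also holds GC boxes and, from -181 to -177, the hypoxia core ACGTG, neither of them in capitals. GC content was 48% for GJA1 and 74.8% for GJA3. AP-1 matches occur in 6.57% of the 35116 windows and E-box matches in 17.5%, while the 32 windows of the tested junction genes with an entry hold 5 and 9. A match is only a run of letters and does not show binding.

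Below the filter were 6 connexins, among them GJB1, GJB5, GJB7 and GJC3, with highest normalized counts from 1.08 (GJB7) to 8.67 (GJB5), and the groups overlapped for each of the 6. Another 6, among them GJA4, GJA5, GJA9, GJA10 and GJB6, were at 0 in every sample.

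Desmosomes have a membrane part and a plaque, of which 2 and 5 genes were tested. DSG2 and DSC2, the desmoglein and desmocollin of simple epithelia, were the only desmosomal cadherins tested, and neither passed. DSG2, the more abundant per kb, was at 1941, 1855 and 1894 normalized counts in Caki2+Vector and at 1995, 1875 and 1910.2 in Caki2+PBRM1. The samples of the groups were interleaved, and the log2 fold change was 0.02 (SE 0.04, limma adjusted p = 0.732). DSC2 had a log2 fold change of -0.15 (SE 0.08, limma adjusted p = 0.144). The desmosomal cadherins of stratified epithelia, DSG1, DSG3, DSG4, DSC1 and DSC3, did not exceed 3.60 normalized counts in any sample.

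DSP encodes desmoplakin, which anchors intermediate filaments to the plaque, and of the 5 plaque genes tested it alone passed. It was at 1612, 1644 and 1656 normalized counts in Caki2+Vector and at 1883, 1855 and 1886 in Caki2+PBRM1. The groups were well separated, with means of 1637.5 ± 22.8 and 1874 ± 17.0 (SD, n = 3 each) and a log2 fold change of 0.19 (SE 0.04, limma adjusted p = 0.000544).

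JUP encodes plakoglobin, which binds the desmosomal cadherins inside the cell, and was the most abundant plaque gene per kb in both groups. Its normalized counts were 1427, 1749 and 1629 in Caki2+Vector and 1685, 1787 and 1655 in Caki2+PBRM1. The groups overlapped, with Caki2+Vector A the lowest of the 6 samples, and the log2 fold change was 0.10 (SE 0.06, limma adjusted p = 0.226). Without Caki2+Vector B it was 0.16 (adjusted p = 0.0308), and without Caki2+Vector A it was 0.02 (adjusted p = 0.783). The plakophilins PKP2, PKP3 and PKP4 had log2 fold changes of 0.18, -0.04 and 0.11, none past the threshold, and PKP1 was under the filter with 1.89 as its highest value.

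Because normalized counts grow with transcript length, members of a family were set against each other as shares of the family's summed normalized counts per kb of exon, a measure that the scaling between samples does not touch. CLDN1 made up 71.6%, 69.9% and 69.8% of the claudin sum in Caki2+Vector and 73.7%, 74.1% and 74.5% in Caki2+PBRM1. Its share was higher in each Caki2+PBRM1 sample, while the share of CLDN4 went from 14.3 ± 0.222% to 11.2 ± 0.161% (SD, n = 3 each) and that of CLDN16 from 6.07 ± 0.399% to 5.16 ± 0.216%.

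GJA1 had the largest share of the connexin sum per kb, with 61.4%, 59.2% and 59.0% in Caki2+Vector and 68.0%, 69.5% and 68.3% in Caki2+PBRM1. The groups were thus separate for GJA1, and the share of GJC1 went from 22.7 ± 0.889% to 17.1 ± 0.112% (SD, n = 3 each). The size of these shares rests on the length used, the union of all annotated exons (3.395 kb for GJA1, 8.716 kb for GJC1). Before division by length, GJA1 and GJC1 had similar means in Caki2+Vector (1449 and 1413). DSG2 supplied 88.2 ± 0.513% and 89.5 ± 0.758% of the desmosomal cadherin sum per kb. PKP3 supplied 63.7 ± 5.29% and 61.1 ± 1.09% of the plakophilin sum per kb. The exact permutation test gave p = 0.1 for CLDN1, GJA1 and DSG2, the smallest it can give, and p = 0.5 for PKP3, or 0.133 and 0.5 after Benjamini-Hochberg adjustment over the 4 tests, so no share passed.

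**Figure D3:**
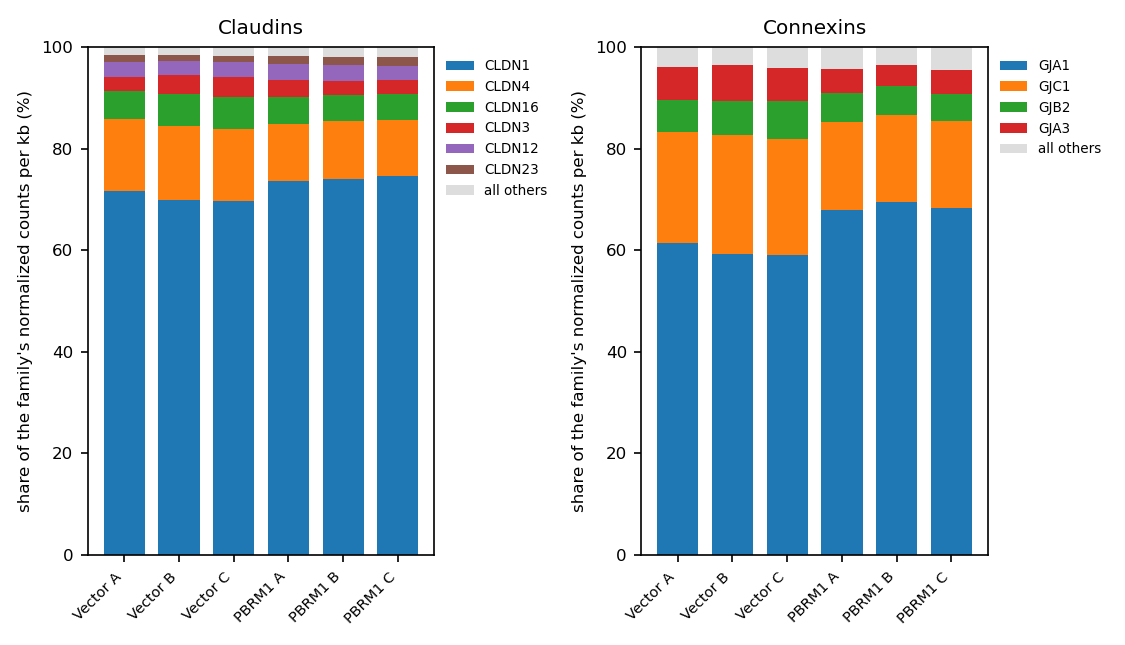
Share of the summed normalized counts per kb of exon (y axis, %) that each gene contributed to the claudins (left) and the connexins (right), 1 stacked bar per sample. The GJA1 part is taller in the 3 Caki2+PBRM1 bars (68.0% to 69.5%) than in the 3 Caki2+Vector bars (59.0% to 61.4%).

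The count of genes that did not pass depended on Caki2+Vector A, the replicate that stood apart. Without it 5 more junction genes passed the threshold, and 4 of them are described. CLDN3, another sealing claudin, was at 102 normalized counts in Caki2+Vector A but at 139.8 and 149.8 in B and C, against 122, 106 and 105 in Caki2+PBRM1, and its log2 fold change moved from -0.22 (adjusted p = 0.214) to -0.38 (adjusted p = 0.00975) without A. With A the groups overlapped, and without A they did not.

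PKP3 was at 389, 493 and 520.2 in Caki2+Vector and at 477, 412 and 467 in Caki2+PBRM1, and without A its log2 fold change was -0.17 (adjusted p = 0.0399). Left out in turn, Caki2+Vector C and Caki2+PBRM1 B gave positive values for PKP3 (0.04 and 0.02), so its direction depended on single libraries. In both CLDN3 and PKP3 A was lower than B and C.

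PKP4 and CLDN15 rose without A, and here A was higher than B and C. PKP4 was at 613, 554 and 526 in Caki2+Vector and at 636, 585 and 606 in Caki2+PBRM1, with a log2 fold change of 0.17 without A (adjusted p = 0.0169). CLDN15 was at 47.3, 35.0 and 40.8 in Caki2+Vector and at 48.7, 60.4 and 50.4 in Caki2+PBRM1, with 0.48 without A (adjusted p = 0.0474). None of these 4 passed when any of the other 5 replicates was left out instead. The 10 genes that passed with all 6 samples also passed without A.

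**Figure D4:**
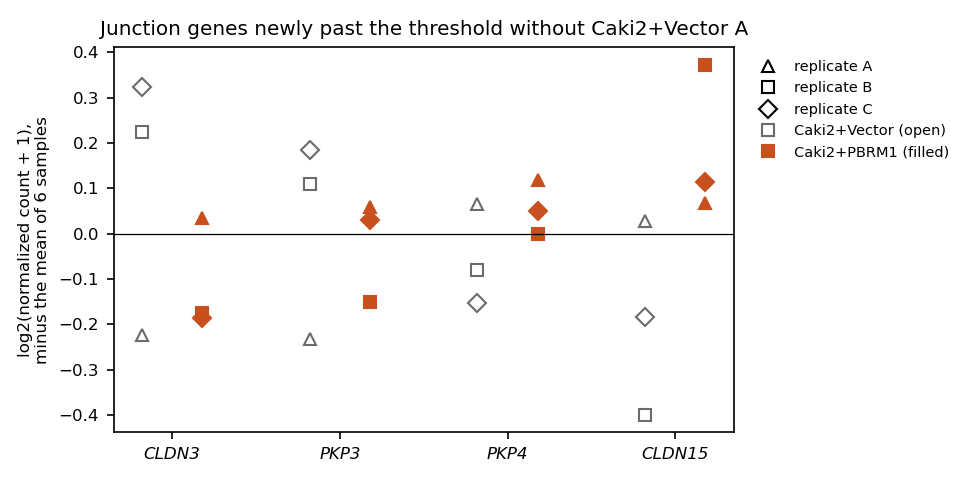
Difference of log2(normalized count + 1) from the mean of the 6 samples (y axis) for 4 genes that passed once Caki2+Vector A was left out; open symbols are Caki2+Vector, filled symbols Caki2+PBRM1, and shapes mark replicates. The open triangle (Caki2+Vector A) lies apart from the open square and diamond in each gene, on the side of the filled symbols. The genes were chosen for passing only without A, so this position follows from the choice.

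Genes that work with these junctions were taken from 7 lists of 97 genes, of which 70 were tested, 19 rose, 16 fell and 35 did not pass. Of the 13303 genes tested in the same fit 29.2% passed, 16.2% rising and 13.0% falling. A larger share of the lists thus passed, in both directions. The lists were drawn up with earlier results of these data known, and whether they differ from other genes was not tested. Among 12 tested adherens junction genes 3 rose and 1 fell. Named after their values were seen, those that rose were VCL, PVRL1 and PVR, with log2 fold changes of 0.20, 0.50 and 0.25. CTNNB1 fell (-0.15, limma adjusted p = 0.00287). CDH1 (E-cadherin) was all but absent, between 0 and 1.89 normalized counts in every sample. CDH2 (N-cadherin), at 3517, 3753 and 3551 in Caki2+Vector and 3392.5, 3401 and 3400.0 in Caki2+PBRM1, had a log2 fold change of -0.09 (adjusted p = 0.0853), with no overlap between groups.

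Of 16 tested genes for other tight junction membrane and scaffold proteins 6 rose and 2 fell. AMOT (angiomotin), a scaffold that binds actin and the Hippo effector YAP, was at 35.0, 36.8 and 41.9 normalized counts in Caki2+Vector and at 85.6, 96.9 and 88.1 in Caki2+PBRM1 (log2 fold change 1.23, SE 0.15, limma adjusted p = 2.20e-07). Its relative AMOTL1 was at 490.4, 478 and 526 in Caki2+Vector and at 854, 859.5 and 788 in Caki2+PBRM1 (log2 fold change 0.74, SE 0.06, limma adjusted p = 3.25e-11). For both, each Caki2+PBRM1 sample was above each Caki2+Vector sample. ESAM, a junctional adhesion molecule known from endothelium, fell from 58.7, 57.6 and 55.1 to 30.3, 33.8 and 29.4 (log2 fold change -0.86, SE 0.17, limma adjusted p = 0.000311). CLMP, named after its values were seen because it had the largest change in these lists, went from a mean of 7.84 to 31.6 normalized counts (log2 fold change 1.89, limma adjusted p = 5.54e-06). Its Caki2+Vector values (5.68, 9.45 and 8.39) were all under 10. CLMP thus met the filter only through Caki2+PBRM1 (24.9, 32.0 and 37.8), and its p-value is not separate support.

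The polarity complexes, which place the tight junction along the lateral membrane, had 3 genes up and 6 down among 15 tested. PRKCZ, an atypical protein kinase C, was at 129, 141 and 179.8 normalized counts in Caki2+Vector and at 109, 100.4 and 97.4 in Caki2+PBRM1, with no overlap (log2 fold change -0.53, SE 0.12, limma adjusted p = 0.00104). The other genes that fell in this list, named after their values were seen, were PRKCI, PARD3, PARD6B, CRB3 and LLGL2, with log2 fold changes from -0.59 to -0.11. Those that rose, named in the same way, were LIN7A, DLG1 and LLGL1, with log2 fold changes from 0.23 to 0.37.

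Among the partners of the desmosome, 5 of 8 tested fell and 1 rose. Those that fell, also named after their values were seen, were the plakins EVPL and PPL and the simple epithelial keratins KRT7, KRT8 and KRT18, with log2 fold changes from -0.50 to -0.18. A further simple epithelial keratin of the list, KRT19, had a log2 fold change of -0.06 (adjusted p = 0.303) and its groups overlapped. The gene that rose was PERP, a tetraspan protein of the desmosome (0.30, adjusted p = 6.66e-09).

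Of 11 tested transcription factors known to act on junction genes 4 rose and 1 fell. SNAI2, a zinc finger repressor of epithelial genes, was at 91.8, 92.6 and 108 normalized counts in Caki2+Vector and at 197, 219.5 and 184 in Caki2+PBRM1 (log2 fold change 1.03, SE 0.11, limma adjusted p = 9.03e-09). ZEB2, another repressor of this kind, was at 37.9, 27.4 and 16.8 in Caki2+Vector and at 58.5, 62.2 and 63.8 in Caki2+PBRM1 (log2 fold change 1.21, SE 0.22, limma adjusted p = 0.000106). The groups of both genes were separate. GRHL1, a grainyhead activator of epithelial junction genes, fell from 71.9, 74.6 and 67.1 to 46.6, 55.1 and 42.8 (log2 fold change -0.56, SE 0.15, limma adjusted p = 0.00598). The lists hold genes that many tissues use, and their counts are read against the 16.2% and 13.0% of tested genes that rose and fell.

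**Figure D5:**
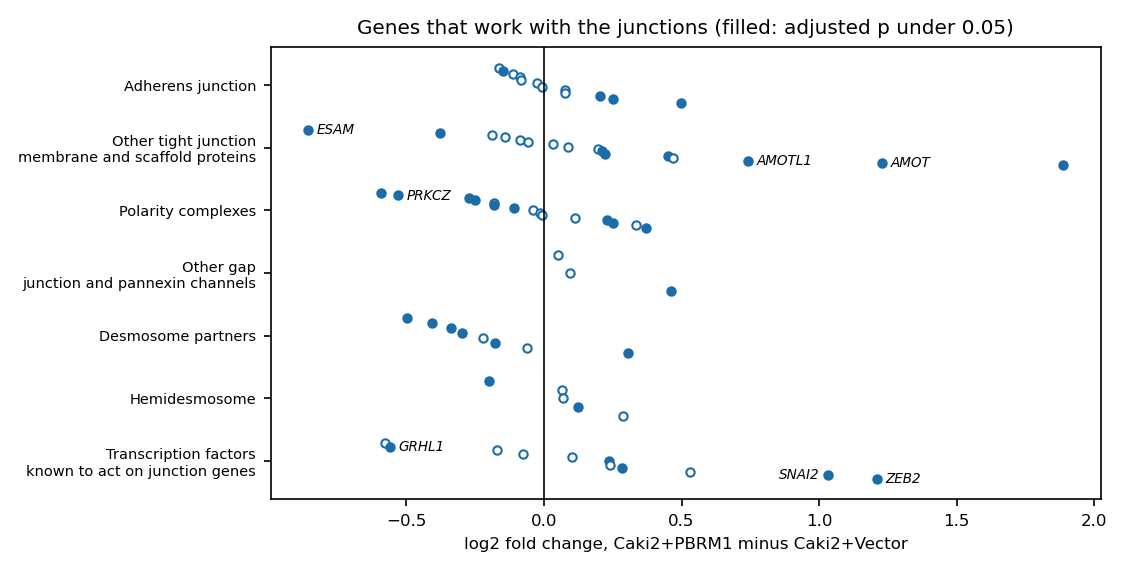
Log2 fold change (x axis, Caki2+PBRM1 minus Caki2+Vector) of the 70 tested genes that work with the junctions, 1 circle per gene and 1 row per list; filled circles passed an adjusted p under 0.05, and genes named by rule carry their symbol. Filled circles lie on both sides of 0 in most lists, with AMOT (1.23), ZEB2 (1.21) and SNAI2 (1.03) among those farthest to the right and ESAM (-0.86) farthest to the left.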

How the data were processed

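Poly(A) RNA of 3 Caki2+Vector and 3 Caki2+PBRM1 samples was sequenced, and groups and replicate letters were taken from the sample labels. The authors discarded adapters, poor reads and rRNA, aligned the remaining reads to hg19 with STAR, counted reads on 25369 UCSC genes with htseq-count and used DESeq2 for normalization. Versions and the strand setting are not given in the sources used here. The signal values the authors deposited are normalized counts: 100% of values were whole multiples of the value of 1 read in their sample (tolerance 0.01), without division by length. The whole reads recovered in this way, from 7312955 to 10835355 per sample, were tested with edgeR as an alternative, which called 2194 genes upregulated and 1836 downregulated.

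Genes with at least 10 normalized counts in at least 3 samples (13303) were compared on log2(normalized count + 1) with limma 3.58.1 (trend and robust empirical Bayes, R 4.3.3), with an adjusted p under 0.05 (Benjamini-Hochberg over all genes tested) as the threshold. Fold changes on this scale understate the change of low genes. P-values measure the spread between replicates that the study calls biological, and the labels do not say whether they came from separate cultures. For single values an exact permutation test was used. On simulated data 200 genes with a mean of at least 50 were changed by 1 log2 unit, up or down. Of these limma recovered 200, with 4.76% of calls false. Most junction genes past the threshold changed by less, and no simulated replicate was set apart as Caki2+Vector A was. The simulation therefore does not give how often changes of their size are found.

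The genes and lists were chosen with earlier results of these data known. Values in every sample are given for genes that passed the threshold and averaged at least 50 in the higher group, for the most abundant gene per kb of each role, and for genes under the filter whose groups do not overlap with a mean of at least 5. Other genes with values in every sample were added after their values were seen. Companion genes were named when past the threshold with a log2 fold change of at least 0.5 in size and a mean of at least 50. Coordinates, exon lengths and overlaps come from GENCODE on GRCh37 (the build hg19 names), matched by symbol. Upstream windows come from RefSeq on GRCh38.p14, with entries for 41 of the 61 junction genes and 21 of the 28 tested.

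The alternatives were edgeR 4.0.16 and DESeq2 1.42.0 on recovered reads, limma voom, TMM and quantile scaling, pseudocounts of 0.5 and 4, no filter, at least 10 in every sample, an adjusted p under 0.01, the replicate letter as a block, no division by length for the shares, and each replicate left out. Tables used Python 3.11.15, numpy 2.4.6, pandas 2.3.3, scipy 1.17.1 and matplotlib 3.10.9. Tumors, qRT-PCR, blots, lipids and images were not analysed here, and the values of a few junction genes are not reported here.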

Additional observations from a re-analysis of the deposited data

How the results depend on the processing

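Of the 10 junction genes past the threshold, CGN, CLDN2, CLDN4, CLDN16, DSP, GJA1, GJA3, GJC1 and TJP1 stayed past an adjusted p of 0.05 in all 16 alternatives, and CLDN23 in 12 of 16. No gene past the threshold changed direction. The count of desmosomal plaque genes was 1 with all samples and ran from 1 to 3 with a replicate left out, 3 without Caki2+Vector A (PKP3 and PKP4 added) and 2 without Caki2+Vector B (JUP added). With a replicate left out the counts of junction genes ran from 3 to 6 upregulated and from 6 to 9 downregulated, and their median from -0.04 to 0.01. Over all genes these fits called from 1597 to 2251 up and from 1201 to 1903 down. The difference in the GJA1 share was 8.74 percentage points per kb and 10.4 without division by length, which gives long transcripts more weight. Over all genes limma called 2152 up and 1734 down, against 1496 and 1057 with DESeq2, whose cause was not tested, and 1496 and 1025 with limma at an adjusted p under 0.01. Quantile normalization moved the median of all genes to -0.02.

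With the replicate block 4 junction genes rose and 6 fell, the counts without it, and over all genes 2249 rose and 1858 fell. Samples that share a letter did not deviate together across the tested genes as a whole (Pearson's r 0.00587 for A, -0.00767 for B and 0.0138 for C). A pairing that touched only some genes might not show in this r, so whether the letters pair the samples stays undecided. At this depth most connexins and claudins were too low to test. The SE of the log2 fold change ran from 0.03 (CLDN1) to 0.35 (TJP3) among the tested junction genes, and the smallest change that passed was that of DSP (0.19).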

Other observations

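Several junction genes are close neighbors in GRCh37. CLDN1 and CLDN16 lie 0.094 kb apart on opposite strands of chromosome 3, and their log2 fold changes were 0.04 and -0.26, of which only the second passed the threshold; the difference between them was not tested. MARVELD2 and OCLN lie 48.0 kb apart on chromosome 5, and neither passed.

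Among 5 tested hemidesmosome genes, which bind the cell to the matrix rather than to its neighbor, CD151 rose (log2 fold change 0.12, limma adjusted p = 0.0320) and ITGA6 fell (-0.20, adjusted p = 0.00227). Of 3 tested genes for other gap junction and pannexin channels, PANX2, a pannexin, rose from a mean of 482 to 659 normalized counts (log2 fold change 0.46, adjusted p = 0.00465). These 3 genes were named after their values were seen.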
